A study of Mus musculus with 23 samples.

Results

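Stem-like cells were defined by their transcripts among donor blood progenitors recovered from transplanted mice. A cell belonged to them when at least 4 of 7 stem cell marker genes (Procr, Hlf, Mecom, Fgd5, Slamf1, Pdzk1ip1 and Ctnnal1) each had at least 1 UMI, the tag that counts a single captured RNA molecule. Of 28485 kept cells in 5 libraries, 1173 (4.12%) met this rule. Because the rule reads the measured counts, the levels of the 7 markers are given as a description and support no comparison.

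The cells came from mice with Mx1-Cre in every group, Control included, in which either Jarid2 or Ezh2 was deleted in the knockout (KO) groups. Mx1-Cre is an interferon-inducible recombinase that acts in many cell types besides blood stem cells, so deletion was not restricted to them. Each recipient was lethally irradiated and received 500000 CD45.2 donor marrow cells mixed with 500000 CD45.1 competitor cells. Donor cells with the surface phenotype c-Kit+ Sca1+ Lineage- (KSL), a gate that holds stem cells and multipotent progenitors, were sorted from marrow 18 weeks later. There was 1 library of Control, 2 of Ezh2 KO and 2 of Jarid2 KO. The labels give neither sex nor age for these libraries and do not say whether the libraries of a genotype came from separate recipients, so p-values measure only the spread between libraries, which may be technical. KSL cells of animals 2 months old that had not been transplanted served as the baseline, with a male library (replicate 1) and a female library (replicate 2) of each genotype. The series sets loss of Jarid2 beside loss of Ezh2 in blood stem cells, and the comparisons below ask how the share and the transcripts of the stem-like cells differed between the genotypes.

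Blood stem cells are rare, mostly quiescent marrow cells that renew themselves and feed every blood lineage, and only they sustain a graft for months. Ezh2 is the methyltransferase of Polycomb repressive complex 2 (PRC2), which places the repressive mark H3K27me3 on the promoters of developmental genes. Jarid2 is an accessory subunit that helps to bring PRC2 to its targets and adjusts its activity, and Mecom, Hlf and Procr are among the genes that best separate long-term stem cells from their progeny.

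The member cells of a library held 3132110 to 4596119 UMIs in all, and their median cell held 9796 to 15742 UMIs against 11949 to 17731 in the other kept cells. Between 25.7% and 43.4% of transplant barcodes exceeded the limit of 10% mitochondrial UMIs and were left out, and the members' median was 4.02% to 5.12%. Sex differed between the groups. Among the members, 59.3% had UMIs of Xist but of no Y-linked gene in the Control library, against 0% in both Ezh2 KO libraries and 38.8% and 50.7% in the Jarid2 KO libraries. The highest Scrublet doublet scores, which were not used to remove cells, fell on 7.203% of Control members, 11.7% and 10.3% of Ezh2 KO members and 8.26% and 8.70% of Jarid2 KO members. Any pair of transplant libraries shared 5 to 15 cell barcodes, at most 0.275% of the smaller library.

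Most members stood just inside the rule. Exactly 4 markers were detected in 968 of them (82.5%), 5 in 183 (15.6%), 6 in 20 and all 7 in 2, whereas 2746 kept cells carried exactly 3 and were left out. The markers contributed unequally. Hlf, a transcription factor of stem cells, was detected in 98.7% of members, Mecom, a regulator of stem cell maintenance, in 94.8%, Procr, the CD201 receptor, in 78.9% and Pdzk1ip1 in 78.1%. Fgd5 was detected in 28.1%, Ctnnal1 in 26.1% and Slamf1, the CD150 receptor, in 14.7%. The commonest combination was Procr, Hlf, Mecom and Pdzk1ip1 together, which 486 members (41.4%) carried.

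The marker levels are given as a description in CPM, the count of a gene in the summed members scaled to the same UMI total in every library. Hlf stood at 383 CPM in Control, 311 and 315 CPM in Ezh2 KO, and 379 and 471 CPM in Jarid2 KO. Mecom stood at 142 CPM in Control, 115 and 127 CPM in Ezh2 KO, and 123 and 128 CPM in Jarid2 KO. Procr stood at 84.7 CPM in Control, 78.6 and 81.9 CPM in Ezh2 KO, and 67.0 and 90.7 CPM in Jarid2 KO. The Control value of Hlf and of Procr lay inside the range of the Jarid2 KO libraries. Pdzk1ip1 ran from 62.7 to 70.7 CPM over the 5 libraries. Fgd5 was at 14.8 CPM in Control and 18.7 to 26.2 CPM in the knockout libraries, and Ctnnal1 at 16.8 CPM and 18.1 to 21.9 CPM. Slamf1 was at 16.5 CPM in Control and 9.71 to 11.8 CPM in the knockout libraries. Cells with exactly 4 markers and cells with exactly 3 differed as the rule requires, with Procr at 61.1 to 85.1 CPM against 31.3 to 52.3 CPM and Mecom at 109 to 140 CPM against 87.3 to 108 CPM.

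The summed level of stem cell genes that the rule did not read also separated the members from the other transplanted cells, and the label "stem-like" was checked against other genes. The summed level of 28 further stem cell genes was 4175 CPM in the Control members, 3789 and 3814 CPM in the Ezh2 KO members, and 4008 and 4255 CPM in the Jarid2 KO members. In the other kept cells the same sum was 2064 to 2427 CPM, so that the members stood at 1.71 to 1.94 times that level in every library. Such a ratio was not particular to stem cell genes. It was 2.11 to 2.77 for erythroid, 1.71 to 3.39 for megakaryocyte and 1.99 to 3.11 for endothelial and stromal markers. Myeloid, early lymphoid, B-lineage, T and innate lymphoid, mast and dendritic markers were lower in members in all 5 libraries. Cells just outside the rule shared much of the level of the 28 stem cell genes, at 3251 to 3702 CPM with exactly 3 markers against 3676 to 4164 CPM with exactly 4. Untransplanted baseline cells that failed the rule stood at 4132 to 5492 CPM, about level with or above the transplanted members, and baseline cells that met it at 7297 to 8151 CPM. Esam, an adhesion molecule of stem cells, was at 20.9 to 28.7 CPM in members and 4.09 to 5.99 CPM in the other cells. Meis1, a Hox cofactor that keeps stem cells undifferentiated, was at 184 to 264 CPM against 62.2 to 93.3 CPM. Cd48, a surface protein that long-term stem cells lack or hold at a low level, was lower in members (94.1 to 120 CPM) than in the other cells (134 to 183 CPM). Flt3, a receptor of multipotent progenitors, did not separate the classes in one direction. It was lower in members than in the other cells in Control and both Ezh2 KO libraries (68.7 to 95.5 CPM against 81.8 to 118 CPM) and higher in both Jarid2 KO libraries (117 against 93.8 CPM and 102 against 99.97 CPM). Cd34, which mouse long-term stem cells lack or hold at a low level, was at 0.922 to 1.18 times the level of the other cells. Vwf, which marks the platelet-biased stem cells, was at only 2.23 to 7.10 CPM in members. These values describe cells chosen by transcripts and carry no test.

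Surface protein offered a measure that the transcript rule had not used, but only at baseline, where antibodies were sequenced with the RNA. There, 9576 of 50460 kept cells (18.98%) met the same marker rule. Their median antibody count was 1.93 to 3.37 times that of the other cells for CD150 and 1.63 to 2.15 times for CD201, across the 6 libraries. CD150 and CD201 are the proteins of Slamf1 and Procr, which the rule reads as transcripts, whereas CD48 and CD135 are not. For CD48 the ratio was 0.217 to 0.352 and for CD135, the Flt3 receptor of multipotent progenitors, 0.509 to 0.639. Both remaining antibodies were higher in members in every library, CD117 (c-Kit) at 1.18 to 1.54 times and the one listed as PE at 1.36 to 1.59 times. High CD150 with low CD48 and CD135 is the classical surface phenotype of long-term stem cells, and all 6 baseline libraries showed these directions in the cells meeting the rule. The rule worked differently there. Baseline cells that failed it detected Hlf in 65.7% to 85.8% and Mecom in 65.6% to 84.7%. Transplanted cells that failed it did so in 43.1% to 50.5% and 24.2% to 29.2%. Whether the surface result carries over to the transplanted members was not tested.

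Genes of the 2 cell cycle lists differed little between the transplanted members and the other transplanted cells. The summed level of 23 G1/S genes was 2128 to 2291 CPM in members and 2240 to 2527 CPM in the other cells, and within each of the 5 libraries the members were lower (0.865 to 0.965 times). The summed level of 24 G2/M genes was 2274 to 3254 CPM in members and 2372 to 2772 CPM in the other cells, with the members lower in 3 of the 5 libraries (0.937 to 1.21 times). In baseline members it was 1341 to 1737 CPM. Mki67, which marks cycling cells, was at 362 to 497 CPM in transplanted members against 153 to 179 CPM in baseline members. A list of 18 quiescence genes and cell cycle inhibitors was higher in transplanted members (1026 to 1342 CPM) than in the other transplanted cells (570 to 776 CPM). Transplantation, Cell Ranger version and experiment cannot be told apart in the comparison with baseline.

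Markers of other lineages in the members were led by myeloid genes. The 16 myeloid markers summed to 3863 to 5549 CPM in members and 10346 to 20054 CPM in the other transplanted cells. Cells with at least 4 of 8 B-lineage markers (Cd79a, Cd79b, Vpreb1, Vpreb3, Igll1, Ebf1, Pax5 and Blnk) are set beside them as cells of a type that normally lacks myeloid transcripts. The members' myeloid sum was 4299 CPM against 3954 CPM in such cells in Control, 3863 against 3909 CPM and 4542 against 4080 CPM in Ezh2 KO, and 5328 against 5386 CPM and 5549 against 6876 CPM in Jarid2 KO. The members lay below the B-lineage-like cells in 3 of the 5 libraries and above them in Control, where there were 8 such cells, and in Ezh2 KO replicate 2. The part of free RNA in the members' myeloid transcripts was not tested. The 17 erythroid markers were higher in members (571 to 1039 CPM) than in the other transplanted cells (237 to 488 CPM), as were 14 megakaryocyte markers (257 to 535 CPM against 117 to 171 CPM). The 10 endothelial and stromal markers summed to 17.8 to 32.9 CPM in members and 6.08 to 13.8 CPM in the other cells, with 4 to 7 of the 10 genes at 0 in each library.

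**Figure D1:**
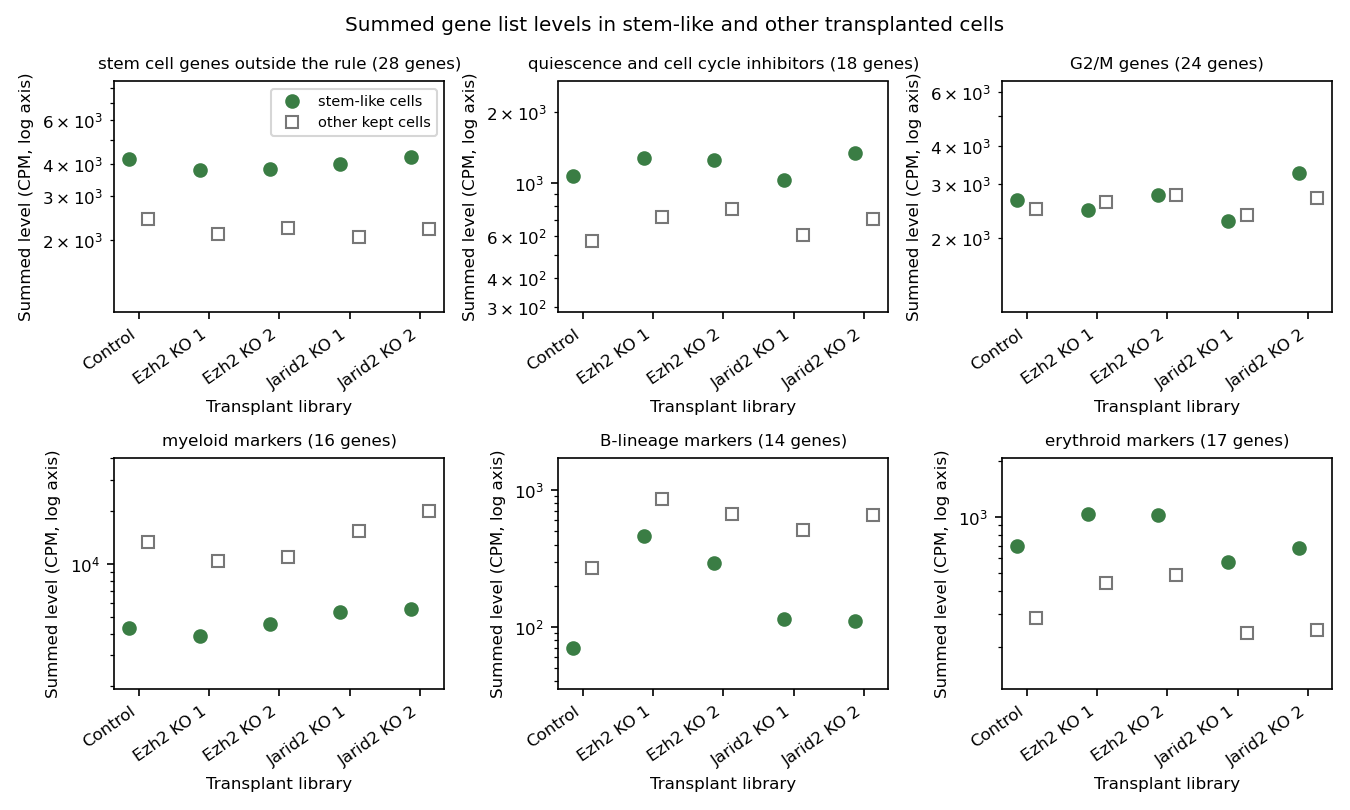
Summed level of 6 gene lists (log axis, CPM) in each transplant library, with filled circles for the stem-like cells and open squares for the other kept cells; there is 1 point per library and class. The stem cell list lies at 3789 to 4255 CPM in the stem-like cells and at 2064 to 2427 CPM in the other cells, while the myeloid list lies the other way round in every library.

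The share of stem-like cells did not differ between genotypes beyond what 5 libraries can resolve. They made up 5.06% of kept cells in Control (236 of 4663, exact binomial 95% interval 4.45% to 5.73%). In Ezh2 KO they made up 3.86% (256 of 6638, 3.41% to 4.35%) and 3.67% (232 of 6321, 3.22% to 4.16%). In Jarid2 KO they made up 4.44% (242 of 5448, 3.91% to 5.02%) and 3.82% (207 of 5415, 3.33% to 4.37%). The Control library was the highest, and the 2 knockout groups overlapped. The Ezh2 KO mean was 1.30 percentage points below Control (3.76% against 5.06%, exact two-sided permutation p = 0.333). The Jarid2 KO mean was 4.13%, a difference of -0.929 points from Control (exact permutation p = 0.667) and 0.369 points above Ezh2 KO (exact permutation p = 0.667). With so few libraries the smallest p that these permutation tests allow is 0.333. The intervals cover counting error only.

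Detection of a marker depends on how deeply a cell was read, and at equal depth the order of the genotypes depended on the number of markers asked for. After each cell was thinned to 5000 UMIs, 28 of 3998 Control cells met the rule (0.700%, 0.466% to 1.01%). Among Ezh2 KO cells 41 of 6275 (0.653%) and 64 of 5835 (1.10%) met it, and among Jarid2 KO cells 28 of 4620 (0.606%) and 44 of 4975 (0.884%) did. Control then lay between the libraries of each knockout group, and the difference became 0.175 points for Ezh2 KO (exact permutation p = 1) and 0.0449 points for Jarid2 KO (exact permutation p = 1). With at least 3 markers in the same thinned cells, a setting chosen after seeing the data that rests on 196 to 292 cells per library, Control was again the highest at 5.15%. Ezh2 KO then stood at 4.03% and 5.00% and Jarid2 KO at 4.24% and 3.94%, a difference from Control of -0.634 points for Ezh2 KO (exact permutation p = 0.667) and -1.06 points for Jarid2 KO (exact permutation p = 0.333). Thinning left out 363 to 828 shallower cells per library. As a background, B-lineage-like cells met the unthinned rule in 0 of 8 cells in Control, which allows a share of up to 37.5% by a floor of 3 counts. The same background was 6 of 509 (1.18%) and 5 of 358 (1.40%) in Ezh2 KO, and 0 of 50 (up to 6%) and 1 of 66 (1.52%) in Jarid2 KO. Depth differed between the classes within a library, with median UMIs of 9865 in B-lineage-like cells against 13211 in members in Control, 14422 against 11744 in Ezh2 KO replicate 1 and 12689 against 15742 in Jarid2 KO replicate 1.

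**Figure D2:**
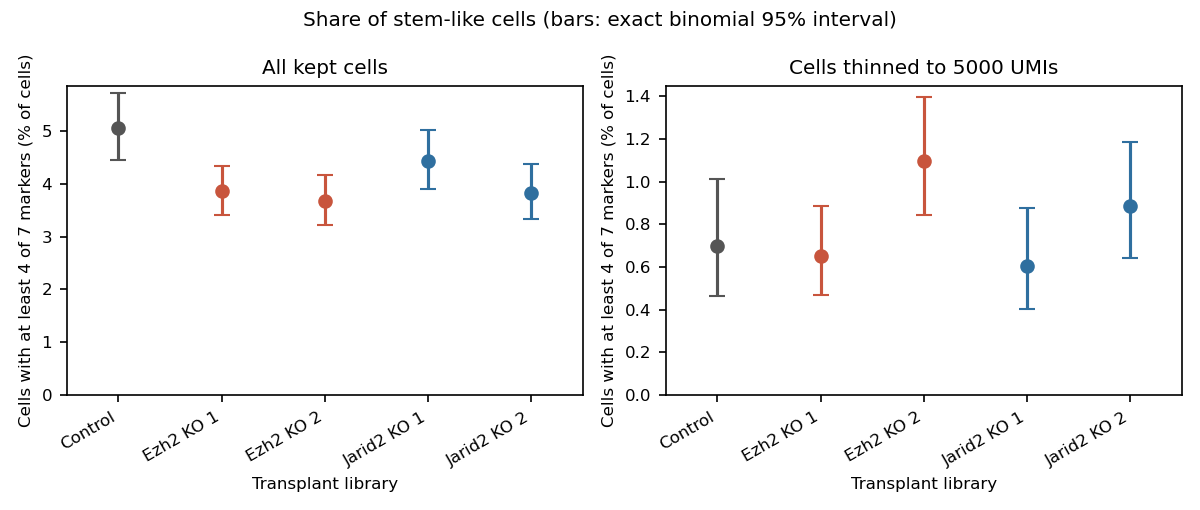
Share of cells with at least 4 of the 7 markers in each transplant library, as a percent of all kept cells (left) and of cells thinned to 5000 UMIs (right), with exact binomial 95% intervals as bars. Control is the highest library on the left at 5.06% and lies at 0.700%, between the libraries of both knockout groups, on the right.

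Transcripts were compared on counts summed over the members of each library, with edgeR's quasi-likelihood test, Benjamini-Hochberg (BH) adjustment over all 11566 genes tested, and a threshold of 0.05 on the adjusted p. Levels from here on are TMM-normalised CPM, which is edgeR's scaling of each library, and log2 fold changes carry their standard error (SE). The median log2 fold change over all genes tested was 0.00 for Jarid2 KO against Control, 0.01 for Ezh2 KO against Control and 0.00 for Jarid2 KO against Ezh2 KO. All 3 contrasts share libraries, and the single Control library was assumed to vary like the knockout libraries.

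The targeted genes were read first. Ezh2 was at 202 CPM in Control, 45.2 and 52.5 CPM in Ezh2 KO, and 157 and 167 CPM in Jarid2 KO. The libraries labelled Ezh2 KO were the lowest, and Ezh2 fell by 2.05 there on the log2 scale against Control (SE 0.16, edgeR adjusted p = 0.000132). Its Jarid2 KO level differed from Control by -0.31 (SE 0.16, edgeR adjusted p = 1). Its UMIs were still found in 41.0% and 37.9% of Ezh2 KO members, against 71.6% in Control. At baseline Ezh2 was at 134 to 147 CPM in the members of the libraries labelled Ezh2 KO against 160 to 164 CPM in Control, a difference that did not pass the test (-0.20, edgeR adjusted p = 0.134). The counts therefore do not check the Ezh2 KO label at baseline, and the group is called by that label below. Jarid2 transcript was at 43.9 CPM in Control, 53.6 and 49.8 CPM in Ezh2 KO, and 55.5 and 43.8 CPM in Jarid2 KO, and its difference of 0.18 in Jarid2 KO did not pass the test (SE 0.19, edgeR adjusted p = 1). Tags from the end of a transcript do not check the deletion of an internal exon, so the Jarid2 label was not checked by these counts. Of 13 PRC2 subunits tested, Ezh2 alone was called in any contrast, and it was called in both that involve Ezh2 KO.

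In the stem-like cells 86 genes differed between Ezh2 KO and Control, 61 higher (0.527% of the genes tested) and 25 lower (0.216%) in Ezh2 KO, 0.744% in all. Of the 86, 78 (90.7%) were also called, each in the same direction, in the other transplanted cells of the same libraries, where they make up 9.63% of 810 called genes. Of all 86, 7 lie on the X and 2 on the Y chromosome, and 59.3% of the Control members but none of the Ezh2 KO members were female by transcript. The share of X-linked genes among all genes tested was not counted, so these numbers alone do not measure an effect of sex. The genes that rose included the lymphoid genes Dntt and Il7r, the fetal growth genes Mycn and Hmga2, and the Polycomb gene Bmi1. Mab21l2, a developmental regulator that blood cells normally keep silent, rose too. B-lineage genes, Ebf1 among them, were also called higher. Many of them passed the filter on low counts through Ezh2 KO alone, so their common direction is no result. Selp, Nupr1, Ly6a and Ly6c2 were among those that fell. The Jarid2 KO libraries enter this contrast through the filter on low counts, the size factors, the BH adjustment and the shared estimate of spread. The count rests on few libraries, since it fell without either Jarid2 KO library and rose without either Ezh2 KO library. It was 35 with DESeq2 and 5 in male cells alone, where Control has 51 members. Of 27 genes named here by rule and called in this contrast, 7 stayed called whichever knockout library was left out, namely Ezh2, Mab21l2, Dntt, Ebf1, Auts2, Selp and Nupr1. Mab21l2 and Ebf1, nearly absent from Control and Jarid2 KO, passed the filter on low counts through Ezh2 KO alone. Most Ebf1 UMIs of the Ezh2 KO members lay in few B-lineage-like cells, so its call is no change of the members at large.

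Mab21l2 was nearly absent from Control and Jarid2 KO and well measured in Ezh2 KO. It was at 0.593 CPM in Control, 60.5 and 63.6 CPM in Ezh2 KO, and 0 and 0.596 CPM in Jarid2 KO, so that the Ezh2 KO libraries stood far apart from the other 3. Its summed level was 104 times that of Control (exact 95% counting interval 28.7 to 864, edgeR adjusted p = 3.97e-05), with 2 UMIs in Control and 464 in Ezh2 KO. The transcript was spread over cells, as 137 of 256 (53.5%) and 104 of 232 (44.8%) Ezh2 KO members carried it, against 1 of 236 (0.424%) in Control. In B-lineage-like cells of the Ezh2 KO libraries 15.9% and 14.2% carried it. In baseline Ezh2 KO members Mab21l2 was at 1.25 to 1.34 CPM.

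Mab21l2 belonged to a list of 30 developmental regulators of the kind that PRC2 silences, and it did not stand for them all. Of the 30, 20 had no UMI in the members of any library, each library lacked 24 of them, and only 5 passed the filter on low counts. Among those 5, Mab21l2 and Tmem108 were called higher in Ezh2 KO. The filter itself favours such genes, since 3 of the 5 had no UMI in Control and the same number lay at or under the floor of 3 counts in both Control and Jarid2 KO, so the list's direction is no result and it says nothing of Jarid2 KO. Tmem108 lost its call (edgeR adjusted p = 0.533) when members with 2 or more B-lineage markers were left out.

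Dntt, the terminal transferase of early lymphoid cells, also rose in Ezh2 KO and, unlike Mab21l2, was well measured in Control. It was at 25.2 CPM in Control, 210 and 346 CPM in Ezh2 KO, and 85.0 and 51.0 CPM in Jarid2 KO, with no overlap between any 2 groups. The rise in Ezh2 KO was 3.46 on the log2 scale (SE 0.38, edgeR adjusted p = 0.00178). Dntt UMIs were present in 42.2% and 43.1% of Ezh2 KO members, 12.7% of Control members, and 32.2% and 18.8% of Jarid2 KO members. It stayed called in members with under 2 B-lineage markers (3.04, SE 0.29, edgeR adjusted p = 0.000175) and in male cells (4.67, SE 0.56, edgeR adjusted p = 0.0236). At baseline it was also higher in Ezh2 KO members (1.34, edgeR adjusted p = 0.000959).

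Of 13 early lymphoid markers tested, 3 rose in Ezh2 KO (Dntt, Il7r and Ccr9), none fell, and the median was 0.75. Of all genes tested, 0.527% were called higher in this contrast. Of the 13, 2 had no UMI in Control, Ccr9 among them. Il7r, the interleukin-7 receptor, was at 1.19 CPM in Control, 12.7 and 13.8 CPM in Ezh2 KO, and 1.15 and 2.09 CPM in Jarid2 KO (rise in Ezh2 KO 3.44, edgeR adjusted p = 0.0176). Ccr9, a homing receptor of thymus-seeding cells, had no UMI in Control and 29 UMIs in Jarid2 KO. By a floor of 3 counts over the group, Jarid2 KO was at least 4.22-fold higher than Control, and Ccr9 was not called there. In Ezh2 KO Ccr9 was at 7.93 and 17.4 CPM, at least 13.6-fold higher than in Control by the same floor (edgeR adjusted p = 0.0214). Both lost their call without Jarid2 KO replicate 1 and without replicate 2 (highest edgeR adjusted p = 0.0928 for Il7r and 0.167 for Ccr9), and Il7r also lost it without members carrying 2 or more B-lineage markers (edgeR adjusted p = 0.755).

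B-lineage genes were measured mainly in Ezh2 KO. Of 13 tested, 9 were called higher in Ezh2 KO. Of the 13, 5 had no UMI in Control and 7 lay at or under 3 counts in both Control and Jarid2 KO, so that many passed the filter on low counts through Ezh2 KO alone and the list's common direction is no result. Ebf1, which commits progenitors to the B lineage, had no UMI in Control, stood at 44.2 and 27.3 CPM in Ezh2 KO, and at 0.458 and 0.298 CPM in Jarid2 KO, at least 41.2-fold higher in Ezh2 KO than in Control (edgeR adjusted p = 0.000711). Vpreb1, a surrogate light chain of the pre-B cell receptor, was at 2.08 CPM in Control, 74.2 and 33.9 CPM in Ezh2 KO, and 3.21 and 3.87 CPM in Jarid2 KO (4.70 in Ezh2 KO, SE 0.61, edgeR adjusted p = 0.00570). Cd79a, a signalling chain of that receptor, was at 0.593 CPM in Control and at 57.2 and 17.4 CPM in Ezh2 KO, 66.6 times higher (counting interval 18.3 to 552). Counting intervals, here and for the other genes, leave out the spread between cells and between libraries.

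B-lineage-like cells also differed in number between the libraries as a whole. They made up 7.67% and 5.66% of all kept cells in Ezh2 KO, 0.172% in Control, and 0.918% and 1.22% in Jarid2 KO. The cells outside the rule held the 14 B-lineage markers at 859 and 669 CPM in the Ezh2 KO libraries, at 268 CPM in the Control library, and at 510.3 and 662 CPM in the Jarid2 KO libraries. Among the members, in Ezh2 KO 6 and 5 members had at least 4 of the 8 B-lineage markers, in Jarid2 KO 0 and 1, and in Control 0. Those cells held 87.9% to 89.7% of the Ebf1 UMIs, 73.5% to 90.9% of the Vpreb1 UMIs, and 87.9% to 96.2% of the Cd79a UMIs of the Ezh2 KO members, genes that were used to pick them. They held 15.2% to 17.2% of the Dntt UMIs and 5.2% to 6.6% of the Mab21l2 UMIs, which were not. At least 2 of the markers were present in 1 Control member (0.424%), in 42 (16.4%) and 33 (14.2%) Ezh2 KO members, and in 10 (4.13%) and 6 (2.90%) Jarid2 KO members. When members with 2 or more of them were left out, a setting chosen after seeing the data, 77 genes were called in all. That setting removes B-lineage UMIs by its construction and is no test of the B-lineage genes. Summed counts alone cannot tell a few cells rich in a transcript from many cells with a little of it. Counted per cell, most Ebf1, Vpreb1 and Cd79a UMIs of the Ezh2 KO members lay in 6 and 5 cells picked partly by those genes. The part of mixed droplets in these cells was not tested.

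**Figure D3:**
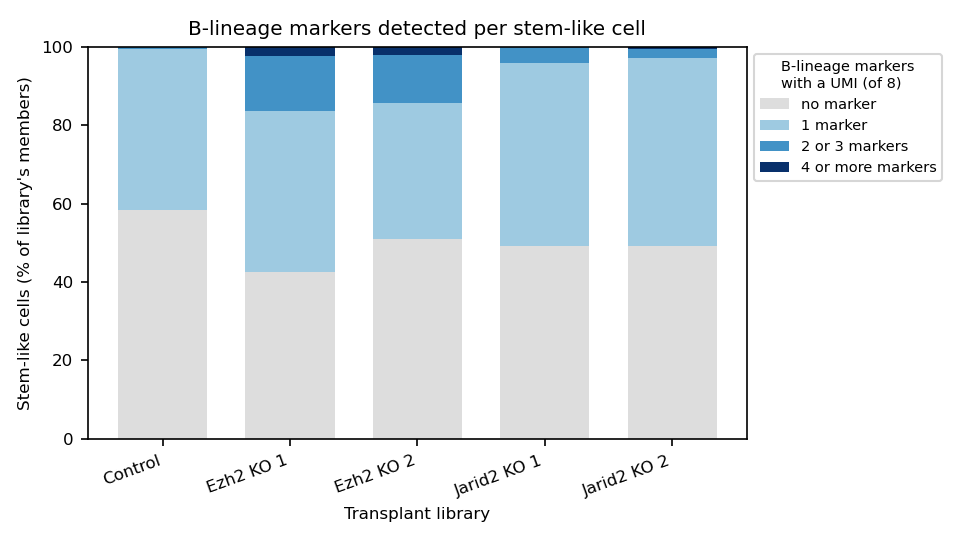
Percent of each library's stem-like cells with no, 1, 2 or 3, and 4 or more of 8 B-lineage markers detected, stacked to 100%. Cells with at least 2 markers make up 16.4% and 14.2% in the Ezh2 KO libraries and 0.424% to 4.13% in the other 3.

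Stem cell genes outside the rule moved in both directions in Ezh2 KO. Of the 28, 1 was called higher and 2 lower (Ly6a and Nupr1), where 0.744% of all genes tested were called, and the median was -0.07. Ly6a, which encodes the Sca1 antigen of the sort itself, was at 104 CPM in Control, 60.1 and 55.8 CPM in Ezh2 KO, and 66.7 and 74.2 CPM in Jarid2 KO (-0.85 in Ezh2 KO, edgeR adjusted p = 0.0365). Nupr1, a stress-response gene enriched in stem cells, was at 27.9 CPM in Control, 3.36 and 2.70 CPM in Ezh2 KO, and 44.2 and 21.8 CPM in Jarid2 KO. It fell by 3.17 in Ezh2 KO (SE 0.46, edgeR adjusted p = 0.00897), and its UMIs were in 4.69% and 2.59% of those members against 21.2% in Control. Ly6a kept its call only without Ezh2 KO replicate 1, and lost it without each of the other 3 knockout libraries (highest edgeR adjusted p = 0.123).

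Selp, the adhesion receptor P-selectin of megakaryocytes and some stem cells, also fell. It was at 65.9 CPM in Control, 19.9 and 21.3 CPM in Ezh2 KO, and 64.6 and 60.8 CPM in Jarid2 KO. The fall in Ezh2 KO was -1.68 (SE 0.17, edgeR adjusted p = 0.000948), and at baseline it was -0.81 (edgeR adjusted p = 0.00721). Selp was the only one of 9 tested megakaryocyte markers called in this contrast, where 0.744% of all genes tested were called. Among 9 erythroid markers the beta-globin gene Hbb-bt alone was called, at 47.8 CPM in Control, 155 and 203 CPM in Ezh2 KO, and 25.7 and 20.0 CPM in Jarid2 KO (1.90 higher in Ezh2 KO, SE 0.22, edgeR adjusted p = 0.00273), and the list's median was 0.73. Ly6c2, a myeloid surface gene, fell to 18.98 and 24.3 CPM from 49.8 CPM (-1.21, edgeR adjusted p = 0.0179) as the only one of 16 myeloid markers called. Without members carrying 2 or more B-lineage markers, a setting chosen after seeing the data, 3 of 16 myeloid and 3 of 9 dendritic markers were called lower. In that setting 77 genes were called in all, 51 of them higher, and the share of all genes tested was not counted. With all members 1 of 16 myeloid and 0 of 9 dendritic markers were called lower. The myeloid and dendritic lists share Irf8.

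The fetal growth list, genes that fetal stem cells use and adult ones turn down, had 5 tested members, of which Mycn and Hmga2 rose in Ezh2 KO. Hmga2, a chromatin protein of fetal stem cell self-renewal, was at 13.6 CPM in Control, 31.9 and 51.9 CPM in Ezh2 KO, and 17.4 and 21.5 CPM in Jarid2 KO (1.60, SE 0.31, edgeR adjusted p = 0.0433). That call was lost without members carrying 2 or more B-lineage markers (edgeR adjusted p = 0.139) and without either Jarid2 KO library (highest edgeR adjusted p = 0.253). Bmi1, a subunit of Polycomb repressive complex 1 (PRC1) that stem cell renewal requires, was at 20.5 CPM in Control, 44.7 and 53.7 CPM in Ezh2 KO, and 20.4 and 22.9 CPM in Jarid2 KO. It rose by 1.26 in Ezh2 KO (SE 0.21, edgeR adjusted p = 0.0184), and it also rose at baseline (0.56, edgeR adjusted p = 0.0157). Bmi1 was the only one of 19 tested PRC1 subunits called, where 0.744% of all genes tested were called. Its call too was lost without either Jarid2 KO library, while its log2 fold change stayed at 1.12 to 1.38 over all left-out libraries.

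Other genes with large changes in Ezh2 KO had less familiar roles in stem cells. Auts2, which encodes a partner of a variant PRC1, was at 11.0 CPM in Control, 46.6 and 53.7 CPM in Ezh2 KO, and 15.4 and 9.54 CPM in Jarid2 KO (2.18, SE 0.28, edgeR adjusted p = 0.00491). Il18r1, an interleukin-18 receptor chain, rose by 2.04 (edgeR adjusted p = 0.00881), from 8.01 CPM to 28.6 and 37.8 CPM. Igf2r, an imprinted receptor, rose by 1.90 (edgeR adjusted p = 0.0214), from 8.01 CPM to 23.8 and 36.9 CPM, as the only one of 10 imprinted genes called. Gem, a small GTPase gene, rose by 2.23 (edgeR adjusted p = 0.0173), with its Ezh2 KO libraries at 113 and 61.8 CPM. Hoxb2 fell by 2.63 (edgeR adjusted p = 0.0173), from 13.4 CPM to 2.40 and 1.80 CPM, and was the only one of 11 Hox genes called. Except for Auts2, all of these were no longer called when a Jarid2 KO library was left out.

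**Figure D4:**
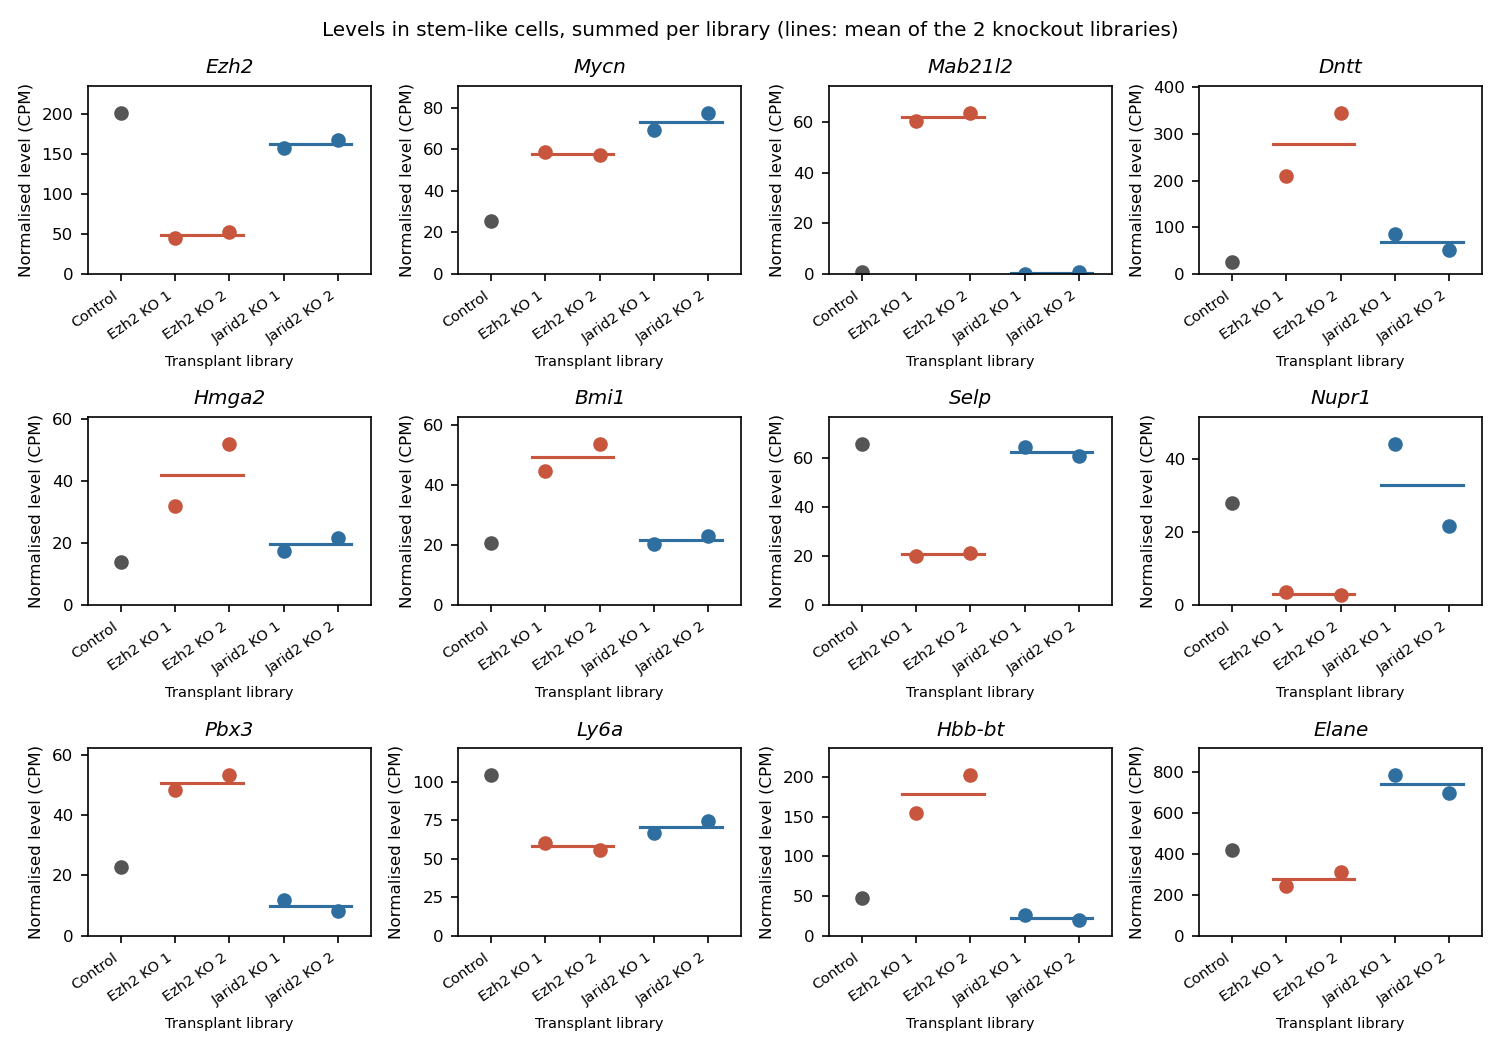
TMM-normalised level (CPM, linear axis from 0) of 12 genes in the summed stem-like cells, with 1 point per transplant library and a line at the mean of the 2 libraries of each knockout. Ezh2, Selp and Nupr1 are lowest in both Ezh2 KO libraries, Mab21l2 and Dntt are highest there, and Mycn is higher in all 4 knockout libraries (57.3 to 77.5 CPM) than in Control (25.5 CPM).

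Between Jarid2 KO and Control 3 genes differed, 0.0259% of those tested, of which 2 were higher (0.0173%) and 1 lower (0.00865%). Mycn, a transcription factor of growth and of stem cell proliferation, was at 25.5 CPM in Control, 58.4 and 57.3 CPM in Ezh2 KO, and 69.0 and 77.5 CPM in Jarid2 KO. All 4 knockout libraries stood above Control, and the rise was 1.52 in Jarid2 KO (SE 0.19, edgeR adjusted p = 0.0258) and 1.18 in Ezh2 KO (SE 0.19, edgeR adjusted p = 0.0171). Mycn UMIs were present in 52.9% and 47.3% of Jarid2 KO members, 50.4% and 43.97% of Ezh2 KO members and 22.9% of Control members. B-lineage-like cells carried it in 7.58% to 10.2% in the knockout libraries and in 0 of 8 in Control. Between Jarid2 KO and Ezh2 KO the difference in Mycn did not pass the test (0.34, edgeR adjusted p = 0.355). Both rises rest on the comparison with the single Control library, and without one Jarid2 KO library they were no longer called (edgeR adjusted p up to 0.471 in Jarid2 KO and 0.0928 in Ezh2 KO), although over all left-out libraries the log2 fold change of Mycn stayed at 1.43 to 1.60 and at 1.16 to 1.19.

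The other 2 genes called in Jarid2 KO, named although the rule for named genes leaves out predicted genes, were Gm43305 and Gm8797. Gm43305 was at 15.7 CPM in Control, 43.0 and 42.3 CPM in Ezh2 KO, and 61.2 and 69.4 CPM in Jarid2 KO (2.05 higher in Jarid2 KO, edgeR adjusted p = 0.00533). Gm8797 was at 40.9 CPM in Control, 22.6 and 28.8 CPM in Ezh2 KO, and 12.8 and 8.64 CPM in Jarid2 KO (-1.90, edgeR adjusted p = 0.0306). A predicted gene can share reads with a close relative, so both values are uncertain.

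No gene of the stem, quiescence, cell cycle, lineage, Hox, imprinted or interferon lists was called between Jarid2 KO and Control by edgeR. Their medians were -0.07 for the stem cell genes, 0.11 for the myeloid markers, 0.60 for the early lymphoid markers with absent genes at their bound and -0.42 for 22 interferon-stimulated genes. At an unadjusted p under 0.05 the early lymphoid list had 7 of 13 genes and the interferon list 7 of 22, where all genes together had 529 of 11566. The mast and basophil list had 3 of 5, the megakaryocyte list 3 of 9 and the Hox list 3 of 11, against 0 of 24 G2/M and 0 of 9 dendritic genes. All these counts rest on the single Control library, where 2 of the 13 early lymphoid genes had no UMI. No list is read as changed from them. DESeq2 called 2 genes in this contrast. The count was 15 without Ezh2 KO replicate 1 and 15 without Ezh2 KO replicate 2, 0 without either Jarid2 KO library, and 0 in male cells alone.

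Jarid2 KO and Ezh2 KO members differed from each other in 176 genes, 1.52% of those tested, with 52 higher (0.45%) and 124 lower (1.07%) in Jarid2 KO, and 162 (92.0%) were also called in the same direction in the other transplanted cells, 7.95% of 2037 genes called there. In Jarid2 KO, 3 of 16 myeloid markers tested and Selp, of 9 megakaryocyte markers, were among the genes called higher. So were H2-Ab1, of 9 dendritic markers, and Cd44, of 19 homing and adhesion receptors. Of 22 interferon-stimulated genes, Iigp1 and Samd9l were called lower. Lower in Jarid2 KO were Hbb-bt, the lymphoid genes Dntt, Il7r and Rag1, and the megakaryocyte markers Gp9, Gng11 and Ppbp. In plain CPM, the 14 megakaryocyte markers summed to 535 and 317 CPM in Ezh2 KO. They summed to 298 and 257 CPM in Jarid2 KO and 291 CPM in Control, so Ezh2 KO replicate 1 stood apart. Of 13 B-lineage genes tested, 10 were lower too, with Rag1 counted again. Of the 13, 7 lay at or under 3 counts in both Control and Jarid2 KO, so their common direction is no result here either. This contrast shares its Ezh2 KO libraries with the one against Control. The count was 75 with DESeq2, 20 in male cells, 273 without Ezh2 KO replicate 2, 18 without Jarid2 KO replicate 1 and 29 without Jarid2 KO replicate 2. Of 37 genes named by rule and called here, 10 stayed called whichever of the 5 libraries was left out: Ezh2, Mab21l2, Ebf1, Auts2, Apobr, Bex4, Hbb-bt, Nupr1, Pbx3 and Selp. Mab21l2 and Ebf1 again passed the filter on low counts through Ezh2 KO alone, and most Ebf1 UMIs lay in few B-lineage-like cells.

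Pbx3 and Bex4 separated the 2 knockouts with Control between them. Pbx3, a cofactor of Hox proteins, was at 22.8 CPM in Control, 48.3 and 53.4 CPM in Ezh2 KO, and 11.7 and 8.34 CPM in Jarid2 KO, a difference of -2.31 between Jarid2 KO and Ezh2 KO (edgeR adjusted p = 8.07e-05). Bex4 was at 11.0 CPM in Control, 45.2 and 35.4 CPM in Ezh2 KO, and 5.73 and 5.07 CPM in Jarid2 KO (-2.89, SE 0.22, edgeR adjusted p = 6.1e-05). Bex4 lies on the X chromosome, and the Ezh2 KO members held no female cells by transcript. Of the 176 genes, 167 were matched to a chromosome, with 8 on the X and 1 on the Y. The share of X-linked genes among all genes tested was not counted, so these numbers do not measure an effect of sex. Between Jarid2 KO and Ezh2 KO the log2 difference of Hbb-bt was -2.96 (edgeR adjusted p = 9.23e-06), and the erythroid list's median was -0.94 with 2 of 9 genes called lower. Apobr, a lipoprotein receptor gene of myeloid cells, was at 42.1 CPM in Control, 10.3 and 13.2 CPM in Ezh2 KO, and 39.0 and 41.7 CPM in Jarid2 KO (1.79, edgeR adjusted p = 0.000329).

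Of 16 quiescence genes and cell cycle inhibitors tested, 1 was called higher and 2 lower in Jarid2 KO than in Ezh2 KO, where 1.52% of all genes tested were called. Cdkn1c, the p57 inhibitor that holds stem cells quiescent, was at 22.3 CPM in Control, 42.3 and 33.0 CPM in Ezh2 KO, and 17.0 and 21.5 CPM in Jarid2 KO (-0.99 between Jarid2 KO and Ezh2 KO, edgeR adjusted p = 0.0217). Cdkn2c, the p18 inhibitor, was at 43.9 CPM in Control, 22.8 and 16.2 CPM in Ezh2 KO, and 33.2 and 50.4 CPM in Jarid2 KO (1.06, edgeR adjusted p = 0.0386). Ndn, an imprinted growth suppressor, had 2 UMIs in Jarid2 KO against 58 in Ezh2 KO, 29.9 times lower (counting interval 7.90 to 252, edgeR adjusted p = 0.00685). None of the 3 passed the test against Control in either knockout, and each lost its call between the knockouts when a library was left out. None of the 23 G1/S and 24 G2/M genes tested was called in any contrast by edgeR. At an unadjusted p under 0.05, 1 G1/S gene stood between Jarid2 KO and Control, 1 G2/M gene between Ezh2 KO and Control, and 2 G2/M genes between the knockouts.

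Elane, which encodes neutrophil elastase, was at 417 CPM in Control, 244 and 310 CPM in Ezh2 KO, and 784 and 694 CPM in Jarid2 KO. Jarid2 KO stood 1.42 above Ezh2 KO (SE 0.17, edgeR adjusted p = 0.00115), with Ms4a3 (0.89, edgeR adjusted p = 0.00604) and Ly6c2 (1.28, edgeR adjusted p = 0.00191) higher too, and the median of the 16 myeloid markers was 0.45. Elane UMIs were found in 78.9% to 100% of members, and in 81.3% to 100% of B-lineage-like cells. B-lineage-like cells of Ezh2 KO held Elane at 515 and 529 CPM and those of Jarid2 KO at 817 and 1507 CPM, on the plain CPM scale, where the members held 241 and 318 CPM, and 744 and 744 CPM. In all 4 knockout libraries the members' Elane level was below that of the B-lineage-like cells, while in Control it was above that of the 8 such cells (400.3 against 264 CPM). The part of free RNA in the difference was not tested. Elane lost its call without Jarid2 KO replicate 1 (edgeR adjusted p = 0.0639) and kept it without each of the other libraries.

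Whether a genotype effect was larger or smaller in the stem-like cells than in the other transplanted cells was tested directly, as an interaction between genotype and cell class with the library as a block over 16038 genes. For Ezh2 KO against Control, 82 genes (0.511%) differed, 28 more positive and 54 more negative in members. Dntt rose by 1.46 more in members than in the other cells (edgeR adjusted p = 1.71e-15). Mycn (-1.03, edgeR adjusted p = 0.000768) and Hmga2 (-1.32, edgeR adjusted p = 0.000805) rose less in members. Mycn, for example, was 2.20 higher in the other cells of Ezh2 KO and 1.18 higher in the members. Cpa3, a mast cell protease gene, rose more in members (1.79, edgeR adjusted p = 6.24e-21). The 9 mast and basophil markers summed to 41.3 CPM in Control members against 275 CPM in the other Control cells. In Ezh2 KO the sums were 137 and 105 CPM against 285 and 271 CPM. Each interaction against Control rests on the same single Control library, so its p-value measures no spread between Control libraries. Genes called in both knockouts are not 2 independent results. The count was 54 without Ezh2 KO replicate 1, 41 without Ezh2 KO replicate 2, 154 without Jarid2 KO replicate 1 and 147 without Jarid2 KO replicate 2.

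For Jarid2 KO against Control the interaction was called in 15 genes (0.0935%), 10 more positive and 5 more negative. Dntt was again among them (0.97, edgeR adjusted p = 8.09e-05), as were Cpa3 (1.495, edgeR adjusted p = 1.14e-12) and Itsn1 (-0.91, edgeR adjusted p = 0.000587), an endocytic scaffold gene that was 2.04 higher in the other cells and 1.13 higher in the members. Pf4, a platelet chemokine, had the greatest interaction of the named genes in this contrast (3.05, edgeR adjusted p = 2.07e-50). Pf4 rested on single cells, since 1 member held 46.6% of its UMIs in Ezh2 KO replicate 1 and 1 member held 70.2% in Jarid2 KO replicate 1. Between the knockouts 220 genes (1.37%) were called, among them Mycn (1.05, edgeR adjusted p = 9.34e-16), which was lower in Jarid2 KO than in Ezh2 KO in the other cells (-0.71) and did not differ by the test in members. The count between the knockouts was 117 and 81 without Ezh2 KO replicate 1 and 2, and 145 without Jarid2 KO replicate 2, and the count against Control was 31 without the last of these libraries.

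Untransplanted cells that met the same rule gave values from samples that the transplanted members were not taken from. There 48 genes (0.309%) were called in Jarid2 KO against Control, 323 (2.08%) in Ezh2 KO against Control and 309 (1.99%) between the knockouts. Mycn was 0.55 higher in baseline Jarid2 KO (edgeR adjusted p = 0.0261), while in baseline Ezh2 KO it stood at 0.01 (edgeR adjusted p = 0.945), unlike the transplanted Ezh2 KO members. Hmga2 was 1.10 higher in baseline Ezh2 KO (edgeR adjusted p = 0.00338), and Cpa3 was 0.71 higher (edgeR adjusted p = 0.0341). Auts2 stood at 0.27 there (edgeR adjusted p = 0.0753) and Nupr1, Il18r1 and Gem passed no baseline test against Control in Ezh2 KO. Whether the transplanted and baseline changes differ was not tested, and the baseline counts fell to 2, 27 and 53 when sex was left out of the fit.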

How the data were processed

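Droplet RNA-seq was analysed for 5 transplant and 6 baseline libraries, with the baseline antibody features; the other samples of the series were not analysed here. The authors deposited unnormalised UMI counts for each feature in each barcode, made with Cell Ranger 6.1.2 (transplant) and 7.2.0 (baseline) per the file headers; the submitters' processing notes list Cell Ranger 3.1.0, Seurat 3.0, Partek and mm10. The handling of intronic reads and of strand is not given in the sources used here.

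Barcodes with at least 1000 UMIs, at least 500 genes and at most 10% mitochondrial UMIs were kept. Doublets were not removed, because Scrublet's automatic threshold (scanpy 1.11.5) marked 0 to 3 cells per transplant library; removal of the highest scores was an alternative. Counts were summed over the members of each library, since cells are not replicates, and fitted with edgeR 4.0.16 (quasi-likelihood, TMM, filterByExpr, BH, 0.05; R 4.3.3), with a sex term at baseline and a library block in the interaction. The scripts were tested on simulated data. Shares were compared by exact permutation over libraries (scipy 1.17.1). Counting alone limits each value as its total allows, and replicates spread further than counting, with a chi-square per degree of freedom of 6.19 in Ezh2 KO and 12.9 in Jarid2 KO. DESeq2 1.42.0, other size factors, marker thresholds, filters, depth, sex and left-out libraries were alternatives.

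Named genes were Ezh2 and Jarid2; per contrast up to 10 called genes with the largest changes, at least 20 CPM on average, non-overlapping groups and an established symbol; up to 5 by interaction under the same limits; and from each of 22 gene lists up to 4 called genes or, with none called, up to 2 of the highest level. A few textbook markers (Esam, Meis1, Cd48, Flt3, Cd34 and Vwf) were added after their values were seen. The members and lists were chosen with earlier results of these data known. The values of 1 named gene are not reported here.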

Additional observations from a re-analysis of the deposited data

Results flagged for a closer look

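The effect of a genotype differed between stem-like and other transplanted cells, by the edgeR interaction test with BH adjustment, in 15 genes for Jarid2 KO against Control, in 82 genes for Ezh2 KO against Control and in 220 genes between the knockouts. Both counts against Control rest on the single Control library. The members and the other cells of a library came through the same handling, while the members' median cell held fewer UMIs in each of the 5 libraries.

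Antibody features, which belong to the baseline experiment, also drew a few UMIs in the transplant matrices, for which the labels describe no antibody staining: 225 in the Control matrix, 269 and 366 in those of Ezh2 KO, and 272 and 313 in those of Jarid2 KO. They entered no comparison.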

How the results depend on the processing

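The number of genes called depended on the cells, libraries, filter and tool used. Against the reported 3 for Jarid2 KO and 86 for Ezh2 KO, each against Control, and 176 between the knockouts, at least 3 markers gave 8, 200 and 519 calls, at least 5 markers 0, 9 and 17, members chosen at 5000 UMIs 0, 6 and 15, male cells 0, 5 and 20, a mean of at least 20 CPM 1, 17 and 36, and no filter on low counts 47, 280 and 496. DESeq2 gave 35 and 75 calls in the last 2 contrasts, and at most 5% mitochondrial UMIs gave 56 and 110. In Jarid2 KO against Control, removing the highest Scrublet scores gave 5, as did leaving out members with 2 or more B-lineage markers, which was chosen after seeing the data. Leaving out 1 library gave 0 to 15, 11 to 170 and 18 to 273 calls. Leaving out a library raised the count in some cases and lowered it in others, and the cause of these shifts was not tested.

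The interaction counts of 15, 82 and 220 became 46, 234 and 859 against other cells with 0 markers, the first became 23 with RLE size factors, and leaving out 1 library gave 14 to 31, 41 to 154 and 81 to 255. The baseline counts of 48, 323 and 309 became 257, 702 and 650 with no filter, 2, 27 and 53 with no sex term, and 12 to 337, 236 to 661 and 99 to 1086 when 1 library was left out.

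Thinning to 5000 UMIs reversed all 3 share differences, to 0.0449 points for Jarid2 KO and 0.175 for Ezh2 KO, each less Control, and -0.130 for Jarid2 KO less Ezh2 KO; with at least 3 markers in the thinned cells, chosen after seeing the data, they were -1.06, -0.634 and -0.427, so that only the last reversed. The first also reversed with at least 5 markers (0.142) and without Hlf (0.176), Mecom (0.137) or Pdzk1ip1 (0.0301); leaving out 1 library gave -1.24 to -0.619, -1.39 to -1.20 and 0.0593 to 0.679 points. No share setting could pass 0.05.

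Across the alternatives of single named genes, 1885 kept their direction and side of the threshold, 314 lost their call, 32 gained one, and 1 reversed: Hmga2 between the knockouts, with members chosen at 5000 UMIs (1.64, adjusted p = 0.8005). Many of the 1885 were not called to begin with, so the tally does not measure how stable the calls are. Named genes called numbered 27 for Ezh2 KO and 1 for Jarid2 KO, each against Control, and 37 between the knockouts. Over these contrasts 46 calls were lost in male cells, 44 with at least 5 markers, 25 with DESeq2 and 3 with at least 3 markers.

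Replicate numbers are shared by the 2 knockout groups only as numbers (correlation of deviations 0.212 over 3221 genes of at least 50 CPM, 1 independent value with 2 pairs). With the replicate number as a block, 342 genes were called between the knockouts, 173 of them among the 176, and the share difference was 0.369 points. Depth limits what is seen: 20 of 30 developmental regulators had no UMI in any member, and a gene absent from the Control members may still lie below 3 counts there.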
